A study of Mus musculus with 9 samples.

Results

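The genes described here are those of TRAIL, of its mouse receptor and decoy receptors, and of the first proteins that act below the receptor. They were taken from the table by gene name and comprise 9 of the 55487 genes listed: the ligand *Tnfsf10*, the receptor *Tnfrsf10b*, the decoy receptors *Tnfrsf22*, *Tnfrsf23* and *Tnfrsf26*, and the intracellular genes *Fadd*, *Casp8*, *Cflar* and *Ripk1*. All 9 passed the filter of at least 1 TPM in at least 3 libraries. RNA was sequenced from CD4+ T cells isolated by negative selection from spleens of wild type C57BL/6 (*Trail-r*+/+) female mice of 6 to 7 weeks, in 3 groups of 3 libraries. Cells of the first group stayed in medium, with no culture time given. For stimulation, 3 µg/ml of anti-CD3 and 2 µg/ml of anti-CD28 Abs, which bind the TCR complex and the costimulatory receptor CD28, were added for 24 h. TRAIL-treated activated T cells received both Abs together with recombinant mouse TRAIL at 10 µg/ml, also for 24 h. Cells given TRAIL alone and *Trail-r*-/- cells were not analysed here, so the effect of TRAIL was measured on stimulated cells only. Nothing in the labels says whether replicates came from separate mice or cultures, and p-values then measure only the spread between these libraries, which may be technical.

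TRAIL, a TNF family ligand, is made as a membrane protein and can be shed. Mice have one TRAIL receptor with an intracellular death domain, encoded by *Tnfrsf10b*, through which the adaptor FADD and the protease caspase-8 can be recruited and apoptosis started. The decoy receptors bind TRAIL or belong to the same cluster but have no death domain. c-FLIP, encoded by *Cflar*, resembles caspase-8 and restrains its activation at the receptor, and the kinase RIPK1 takes part in NF-κB signaling, apoptosis and necroptosis. In T cells, TRAIL is known both as an effector molecule and as a regulator of activation.

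The receptor and the decoys differ in length. The coding sequence of *Tnfrsf10b* is 1143 bases long, whereas those of *Tnfrsf22*, *Tnfrsf23* and *Tnfrsf26* are 594, 528 and 612 bases (longest coding transcript of each, GENCODE M21, GRCm38). The last 240 coding bases of the receptor, bases 904 to 1143, are shown because the death domain, which the decoys lack, lies toward this end of the protein.
Tnfrsf10b: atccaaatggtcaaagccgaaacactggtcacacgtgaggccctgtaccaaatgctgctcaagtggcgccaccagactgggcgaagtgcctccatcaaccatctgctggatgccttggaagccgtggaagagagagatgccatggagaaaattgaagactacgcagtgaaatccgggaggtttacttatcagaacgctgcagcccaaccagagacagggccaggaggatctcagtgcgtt

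The 3 decoy genes lie side by side on the minus strand of chromosome 7 in GRCm38, *Tnfrsf26* at chr7:143607659-143628722, *Tnfrsf22* at chr7:143634806-143649661 and *Tnfrsf23* at chr7:143665809-143685872. Only 6083 bases separate the first pair and 16147 the second. *Tnfrsf22* and *Tnfrsf23* are similar in coding sequence, with 90.7% identity over 528 aligned coding bases (479 identical). The following 120 coding bases (384 to 503 of *Tnfrsf22* and 354 to 473 of *Tnfrsf23*) are shown as the ungapped stretch of this length in which the 2 genes are most alike. They agree at 118 positions, and capitals mark the 2 that differ.
Tnfrsf22: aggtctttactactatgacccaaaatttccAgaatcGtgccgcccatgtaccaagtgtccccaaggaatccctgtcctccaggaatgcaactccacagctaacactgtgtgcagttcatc
Tnfrsf23: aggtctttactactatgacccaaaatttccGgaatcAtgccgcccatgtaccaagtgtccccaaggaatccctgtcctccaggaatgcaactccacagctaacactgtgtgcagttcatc
Of all windows of 50 bases in the transcripts of *Tnfrsf22*, 27.4% also occur in another gene, mostly in *Tnfrsf23*, and the share was 19.3% for *Tnfrsf23*. For the other 7 genes it was 0.33 to 7.87%. How the counting divided reads between the 2 genes is not stated, so their separate values are uncertain, and their sum is given as well.

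Values are in TPM, in which reads are divided by gene length and each library is scaled to 1 total, so levels can be compared between genes but the read depth is unknown. Groups were compared with limma on log2(TPM + 1) over the 15536 genes that passed the filter, and every log2 fold change, SE and interval below is on that scale, which understates changes of genes with low TPM. Values given as times or -fold are ratios of the mean TPM of the groups, so the 2 scales differ most for genes with low TPM. With 3 libraries per group the smallest two-sided p of an exact permutation test is 0.1, and the tests therefore rely on limma's pooling of the spread over genes. A gene was called at a Benjamini-Hochberg adjusted p under 0.05, and 95% intervals are not adjusted. The stimulated libraries stood apart from the other groups, and calls were frequent. Across genes, the highest correlation of a stimulated library with any library of another group was 0.849 to 0.861, and that of a medium or TRAIL-treated library was 0.963 to 0.970. Of all genes tested, 28.8% were called higher and 40.0% lower in stimulated than in medium cells, 33.5% higher and 33.5% lower with TRAIL than in stimulated cells, and 8.03% higher and 24.6% lower with TRAIL than in medium. These shares depended on the scaling, and under quantile normalization 35.9% were higher and 33.4% lower in stimulated than in medium cells.

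Markers of the labelled cells were present, with all 6 T cell markers (among them *Cd3e*, *Cd4* and *Trac*) at 1 TPM or more in each group and a summed level of 2867 to 3116 TPM in medium, 2179 to 2215 TPM after stimulation and 2696 to 3019 TPM with TRAIL. Transcripts of other spleen cells were also abundant, and they differed between the groups. The 10 macrophage and monocyte markers summed to 1611 to 1751 TPM in medium, to 32.8 to 38.5 TPM after stimulation and to 1328 to 1497 TPM with TRAIL, and all 10 were called lower with stimulation and higher when TRAIL was added. The 6 B cell markers summed to 1930 to 1995, 149 to 164 and 802 to 895 TPM, and all 6 were called in the same directions. Erythroid markers (6 genes) summed to 1463 to 1903, 19.1 to 31.6 and 451 to 487 TPM, and neutrophil markers (5 genes) to 499 to 784, 27.0 to 41.8 and 329 to 424 TPM. The marker sums of dendritic cells (5 genes, 49.7 to 54.4, 9.58 to 13.1 and 30.5 to 33.4 TPM) and of NK cells (4 genes, 97.4 to 123, 18.6 to 21.9 and 33.4 to 39.5 TPM) were also lowest in stimulated libraries, although 1 of the dendritic cell markers, *Zbtb46*, was highest there (5.04 to 6.60 TPM), whereas *Cd8a* and *Cd8b1* together were lowest with TRAIL (110 to 118, 94.2 to 105 and 46.9 to 49.4 TPM). Of the genes read as a check of activation, *Il2ra*, which encodes CD25, measured 22.9 to 26.3 TPM in medium, 723 to 944 TPM after stimulation and 20.8 to 25.3 TPM with TRAIL. *Tnfrsf9* (22.7 to 25.7, 326 to 347 and 20.5 to 27.3 TPM) and *Il2* (0.116 to 0.452, 9.27 to 23.3 and 0.345 to 0.718 TPM) had the same pattern, so these transcripts were near the level of medium in the TRAIL-treated activated T cells, which are named for their treatment. *Cd69* had its highest values with TRAIL (412 to 517, 372 to 394 and 621 to 872 TPM) and *Mki67* in medium (62.7 to 64.7, 18.2 to 51.8 and 34.2 to 39.8 TPM). In such bulk RNA, fewer cells of a type and less RNA per cell cannot be told apart, and the part of these cells in the values below was not tested.

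**Figure D1:**
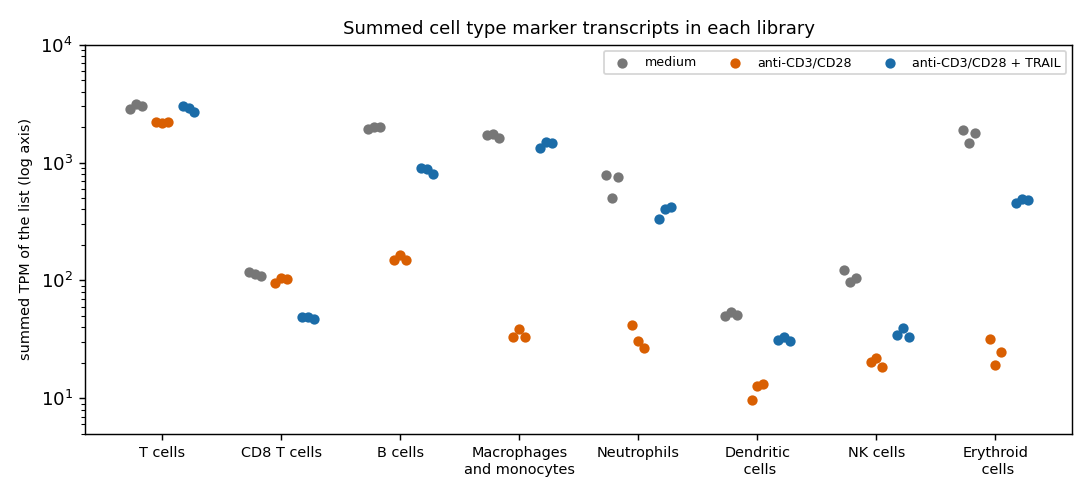
Summed TPM of the markers of each cell type (log axis) in each library, with 3 points per group. The macrophage and monocyte sum lies at 32.8 to 38.5 TPM in the anti-CD3/CD28 libraries and at 1328 TPM or more in all medium and TRAIL-treated libraries, while the T cell sum stays between 2179 and 3116 TPM.

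Transcripts of TRAIL itself were lowest in stimulated cells. *Tnfsf10* (ENSMUSG00000039304, chr3:27317028-27342427, plus strand) measured 15.7, 15.5 and 15.2 TPM in the 3 medium libraries, 5.30, 6.39 and 5.82 TPM in the stimulated libraries, and, with TRAIL, 11.9, 10.9 and 9.09 TPM. No library of one group reached the range of another, and the TRAIL-treated libraries lay between the other groups. *Tnfsf10* fell with stimulation to 0.377 times its mean in medium (log2 fold change -1.27 ± 0.12, SE, n = 3 per group, adjusted p = 6.29e-06). It was higher with TRAIL than without, by 0.76 ± 0.12 on the log2 scale (adjusted p = 0.00027), and remained lower than in medium (-0.51 ± 0.12, adjusted p = 0.011). The order of *Tnfsf10* was thus medium, TRAIL-treated, stimulated. The macrophage, B cell, erythroid, neutrophil, dendritic cell and NK cell marker sums had the same order. The T cell sum was also lowest in stimulated libraries (2179 to 2215 TPM), with the other groups overlapping, and the CD8 T cell sum was lowest with TRAIL. The part of any of these cells in the *Tnfsf10* values was not tested.

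The TRAIL receptor gene had another order, with the lowest level in medium and the highest in TRAIL-treated activated T cells. *Tnfrsf10b* (ENSMUSG00000022074, chr14:69767472-69784411, plus strand) measured 3.87, 4.66 and 2.92 TPM in medium, 7.001, 9.40 and 8.55 TPM after stimulation and 13.2, 14.1 and 11.9 TPM after stimulation with TRAIL. Again no libraries overlapped between groups, and each step was upward. The mean TPM rose 2.18-fold with stimulation (log2 fold change of TPM + 1, 0.96 ± 0.16, SE, n = 3 per group, adjusted p = 0.00036) and a further 1.57-fold when TRAIL was present (0.60 ± 0.16, adjusted p = 0.0068). TRAIL-treated cells therefore held 3.43 times the mean *Tnfrsf10b* level of cells in medium (1.56 ± 0.16, adjusted p = 0.0001). Among the tested genes, the mean TPM of *Tnfrsf10b* ranked at percentile 22.9 in medium, 38.5 after stimulation and 46.3 with TRAIL. The marker sums of all cell types read except CD8 T cells were, like *Tnfrsf10b*, higher in TRAIL-treated than in stimulated libraries. These sums were lower in stimulated than in medium libraries, whereas *Tnfrsf10b* was higher. Their part in the result was not tested.

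**Figure D2:**
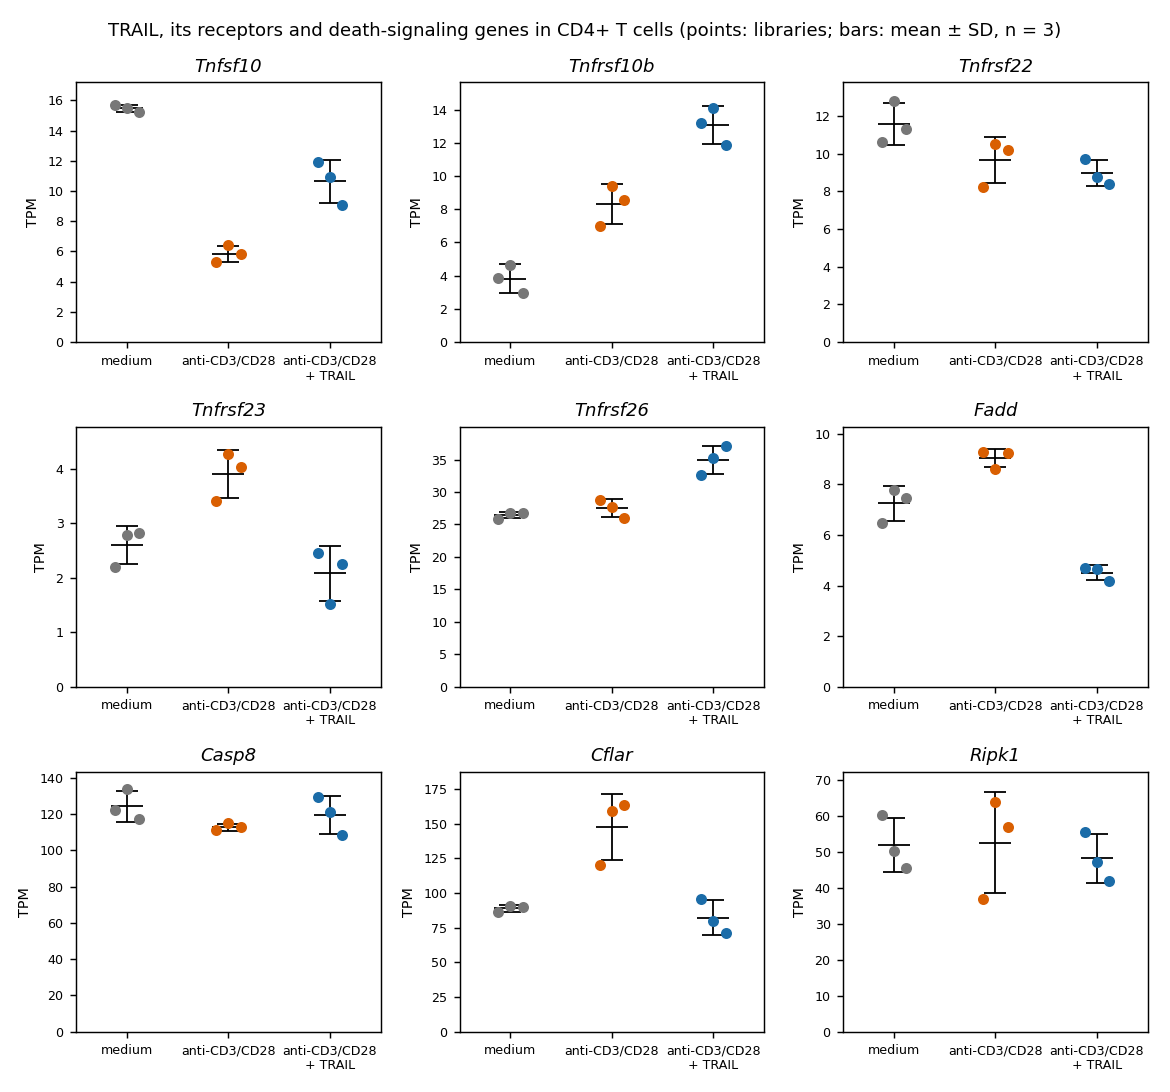
TPM of the 9 genes in each library (points) with the mean and SD of the 3 libraries per group, each panel with its own axis from 0. *Tnfrsf10b* steps up from 2.92 to 4.66 TPM in medium to 11.9 to 14.1 TPM with TRAIL, *Tnfsf10* is lowest after anti-CD3/CD28, *Fadd* and *Cflar* are highest there, and the groups of *Ripk1* overlap.

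The decoy genes did not move as a group. *Tnfrsf26* (ENSMUSG00000045362) was the most abundant of them in every library and was raised with TRAIL. It measured 25.9, 26.7 and 26.7 TPM in medium, 28.8, 27.7 and 25.99 TPM in stimulated and 32.6, 35.2 and 37.0 TPM in TRAIL-treated libraries. The medium and stimulated libraries overlapped (log2 fold change 0.05, 95% interval -0.15 to 0.26, adjusted p = 0.61), and all TRAIL-treated libraries lay above both. *Tnfrsf26* rose 1.27-fold against stimulated cells (0.33 ± 0.09, adjusted p = 0.0079) and 1.32-fold against medium (0.39 ± 0.09, adjusted p = 0.0099).

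*Tnfrsf23* (ENSMUSG00000037613) was the least abundant of the 9 genes and the only decoy gene called higher with stimulation. It measured 2.20, 2.78 and 2.82 TPM in medium, 3.42, 4.27 and 4.05 TPM in stimulated and 2.46, 1.52 and 2.26 TPM in TRAIL-treated libraries. The stimulated libraries lay above all others, and the other groups overlapped. *Tnfrsf23* rose with stimulation by 0.45 ± 0.15 (adjusted p = 0.025) and fell by 0.68 on the log2 scale when TRAIL was added (SE 0.15, adjusted p = 0.0027), to 0.532 times the mean of stimulated cells. Without medium replicate 1, stimulated replicate 2 or stimulated replicate 3 the log2 fold change against medium was 0.37, 0.40 and 0.43 and the adjusted p 0.088, 0.082 and 0.069, so the call, though not the direction, depended on those libraries. The difference between TRAIL-treated and medium cells was -0.23 (95% interval -0.58 to 0.11, adjusted p = 0.28).

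*Tnfrsf22* (ENSMUSG00000010751) was not called in any comparison. Its values were 10.6, 12.8 and 11.3 TPM in medium, 8.26, 10.5 and 10.2 TPM in stimulated and 9.72, 8.78 and 8.39 TPM in TRAIL-treated libraries. All 6 stimulated and TRAIL-treated libraries lay below the medium libraries, at log2 fold changes of -0.24 (95% interval -0.52 to 0.04, adjusted p = 0.11) and -0.33 (-0.61 to -0.05, adjusted p = 0.068), and TRAIL-treated differed from stimulated cells by -0.09 (-0.37 to 0.19, adjusted p = 0.53). The adjusted p against medium was 0.032 for TRAIL-treated cells without stimulated replicate 1. The summed level of *Tnfrsf22* and *Tnfrsf23*, which depends less on how reads shared by the pair were divided, was 14.2 ± 1.38 TPM in medium, 13.6 ± 1.67 in stimulated and 11.0 ± 1.00 TPM in TRAIL-treated libraries (SD, n = 3). With single libraries at 12.8, 15.6 and 14.1, at 11.7, 14.8 and 14.3, and at 12.2, 10.3 and 10.7 TPM, the sums overlapped between stimulated and both other groups. *E230032D23Rik*, a gene on the opposite strand that overlaps exons of *Tnfrsf23* by 164 bases and of *Tnfrsf26* by 107, measured 4.70 to 6.27 TPM in medium, 1.41 to 2.36 TPM after stimulation and 2.61 to 4.59 TPM with TRAIL. Whether the counting used strand is not stated, and without strand reads of the overlaps cannot be told apart.

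Together the 3 decoy genes summed to 38.7 to 42.3 TPM in medium, 40.2 to 42.5 TPM after stimulation and 44.8 to 47.7 TPM with TRAIL. Per library, this sum was 9.99, 9.07 and 14.0 times the level of *Tnfrsf10b* in medium, 5.78, 4.52 and 4.71 times in stimulated cells and 3.39, 3.22 and 4.01 times in TRAIL-treated activated T cells. The ratio therefore had its lowest values with TRAIL, at a mean of 3.54 ± 0.42, against 5.003 ± 0.68 in stimulated cells and 11.0 ± 2.61 in medium (SD, n = 3), and no libraries overlapped between groups. It was lowest with TRAIL although the decoy sum was highest there, as the receptor level differed more between groups than the decoy sum. Of the 3 decoy genes only *Tnfrsf26* had its highest mean with TRAIL (26.4 TPM in medium, 27.5 in stimulated and 34.9 in TRAIL-treated libraries). *Tnfrsf22* and *Tnfrsf23* together had their lowest mean there (14.2, 13.6 and 11.0 TPM). No test was made on the ratio.

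Below the receptor, *Fadd* and *Cflar* were highest in stimulated cells and lower with TRAIL. *Fadd* (ENSMUSG00000031077, chr7:144577318-144582463, minus strand), which encodes the adaptor that joins caspase-8 to the death domain, measured 6.46, 7.79 and 7.47 TPM in medium, 9.26, 8.62 and 9.25 TPM in stimulated and 4.69, 4.67 and 4.17 TPM in TRAIL-treated libraries. Each TRAIL-treated library was below every other library. *Fadd* fell with TRAIL to 0.499 times the mean of stimulated cells (log2 fold change -0.87 ± 0.11, SE, n = 3 per group, adjusted p = 6.01e-05) and to 0.623 times that of medium (-0.58 ± 0.11, adjusted p = 0.004). The rise with stimulation was smaller (0.29 ± 0.11, adjusted p = 0.041), and its call was lost in 9 of 18 alternatives, where the log2 fold change was 0.22 to 0.32 and the adjusted p reached 0.14. Among these were the fits without medium replicate 1 or 3, without any 1 of the stimulated replicates (adjusted p 0.061 to 0.11), and without TRAIL-treated replicate 1 or 2. The antisense gene *Faddos*, which shares 239 exonic bases with *Fadd*, was listed at 0.0001 TPM, the floor of the table, in all libraries.

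*Cflar* (ENSMUSG00000026031, chr1:58711508-58758884, plus strand), the gene of the caspase-8 inhibitor c-FLIP, measured 86.0, 90.8 and 89.9 TPM in medium, 120, 159 and 164 TPM in stimulated and 95.6, 79.6 and 70.9 TPM in TRAIL-treated libraries. All stimulated libraries lay above the rest, and the medium libraries fell within the range of the TRAIL-treated libraries. *Cflar* rose 1.66-fold with stimulation (0.71 ± 0.14, adjusted p = 0.0012) and with TRAIL fell to 0.556 times the stimulated mean (-0.84 ± 0.14, adjusted p = 0.0004). Between TRAIL-treated and medium cells the difference was -0.13, with a 95% interval of -0.44 to 0.19 (adjusted p = 0.53).

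*Casp8* (ENSMUSG00000026029, chr1:58795374-58847503), which starts 36489 bases beyond the end of *Cflar* on the same strand, was not called in any comparison. It measured 122, 134 and 117 TPM in medium, 111, 115 and 113 TPM in stimulated and 129, 121 and 108 TPM in TRAIL-treated libraries. The 95% intervals were -0.35 to 0.07 for stimulated against medium cells (log2 fold change -0.14, adjusted p = 0.22), -0.13 to 0.29 for TRAIL-treated against stimulated cells (0.08, adjusted p = 0.47) and -0.27 to 0.15 for TRAIL-treated against medium cells (-0.06, adjusted p = 0.67). Under quantile normalization *Casp8* was called lower in stimulated than in medium cells (-0.24, adjusted p = 0.016) and higher with TRAIL than in stimulated cells (0.29, adjusted p = 0.0059).

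The ratio of inhibitor to protease transcripts, *Cflar* over *Casp8* TPM, was 0.705, 0.679 and 0.768 in medium, 1.08, 1.38 and 1.45 in stimulated and 0.740, 0.658 and 0.654 in TRAIL-treated libraries. By gene-level TPM, *Cflar* thus exceeded *Casp8* in all 3 stimulated libraries and in none of the other 6. Of 13 annotated *Cflar* transcripts 4 are protein coding, as are 4 of 4 for *Casp8*, so the ratio need not be that of coding transcripts. The mean ratio was 0.717 ± 0.046 in medium, 1.31 ± 0.197 in stimulated and 0.684 ± 0.048 in TRAIL-treated cells (SD, n = 3), and the medium and TRAIL-treated values overlapped. A single scaling factor per library leaves the ratio unchanged, and no test was made on it.

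**Figure D3:**
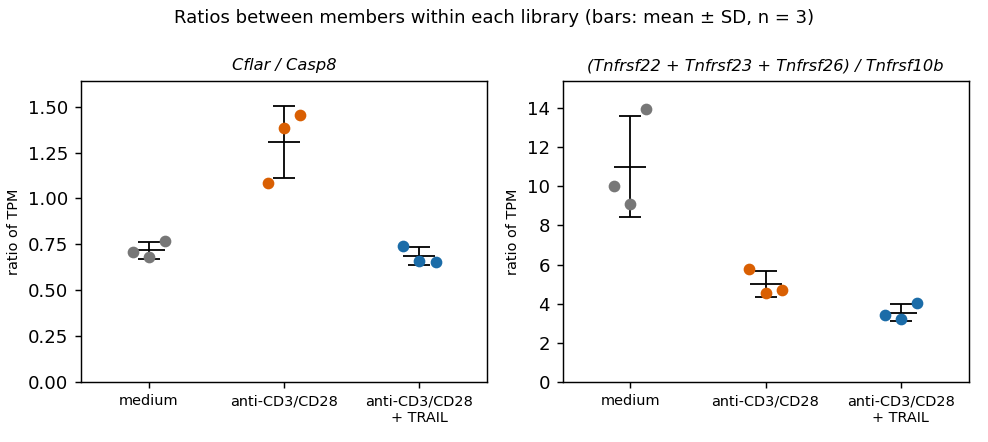
Ratios of TPM within each library (points) with mean and SD of 3 libraries per group, axes from 0. *Cflar* over *Casp8* exceeds 1 only in the anti-CD3/CD28 libraries (1.08 to 1.45), and the summed decoy genes over *Tnfrsf10b* step down from 9.07 to 14.0 in medium to 3.22 to 4.01 with TRAIL.

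*Ripk1* (ENSMUSG00000021408, chr13:34002363-34037147, plus strand) was not called in any comparison, and it had the largest SE of the 9 genes (0.20). The 3 medium libraries measured 60.2, 50.3 and 45.5 TPM, the stimulated libraries 36.9, 63.9 and 57.0 TPM and the TRAIL-treated libraries 55.6, 47.2 and 42.0 TPM. All groups overlapped. The intervals were wide, at -0.45 to 0.43 for stimulated against medium cells (log2 fold change -0.01, adjusted p = 0.97), -0.53 to 0.35 for TRAIL-treated against stimulated cells (-0.09, adjusted p = 0.69) and -0.54 to 0.34 for TRAIL-treated against medium cells (-0.10, adjusted p = 0.71). *Serpinb6a*, on the opposite strand, overlaps exons of *Ripk1* by 241 bases, and that gene measured 59.4 to 72.0 TPM in medium, 11.1 to 12.6 TPM after stimulation and 64.0 to 66.3 TPM with TRAIL. The pseudogene *Gm17084*, on the same strand, overlaps *Ripk1* exons by 511 bases and measured 0.0013 to 0.039 TPM over all libraries.

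The counts of called genes among the 9 have to be read against those of all genes. In stimulated against medium cells, 4 of 9 were higher (*Tnfrsf10b*, *Tnfrsf23*, *Fadd* and *Cflar*) where 28.8% of all tested genes were, and 1 of 9 was lower (*Tnfsf10*) where 40.0% were. Their median log2 fold change was 0.05, and that of all tested genes was -0.15. In TRAIL-treated against stimulated cells, 3 were higher (*Tnfsf10*, *Tnfrsf10b* and *Tnfrsf26*, background 33.5%) and 3 lower (*Tnfrsf23*, *Fadd* and *Cflar*, background 33.5%), with a median of -0.09 against 0.01 for all genes. In TRAIL-treated against medium cells, 2 were higher (*Tnfrsf10b* and *Tnfrsf26*, background 8.03%) and 2 lower (*Tnfsf10* and *Fadd*, background 24.6%), with medians of -0.13 and -0.18. The background of this comparison depended on the scaling, with 12.5% of genes higher and 13.8% lower under median-of-ratios scaling and 12.0% and 16.2% under quantile normalization, while 2 of the 9 genes stayed higher and 2 lower in each. The comparisons share groups of libraries and are not independent of each other. If a log2 fold change of at least 1 on the log2(TPM + 1) scale was also required, in either direction, 1 of the 9 genes was called in the first comparison (*Tnfsf10*, background 31.9%), 0 in the second (background 30.9%) and 1 in the third (*Tnfrsf10b*, background 4.62%).

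**Figure D4:**
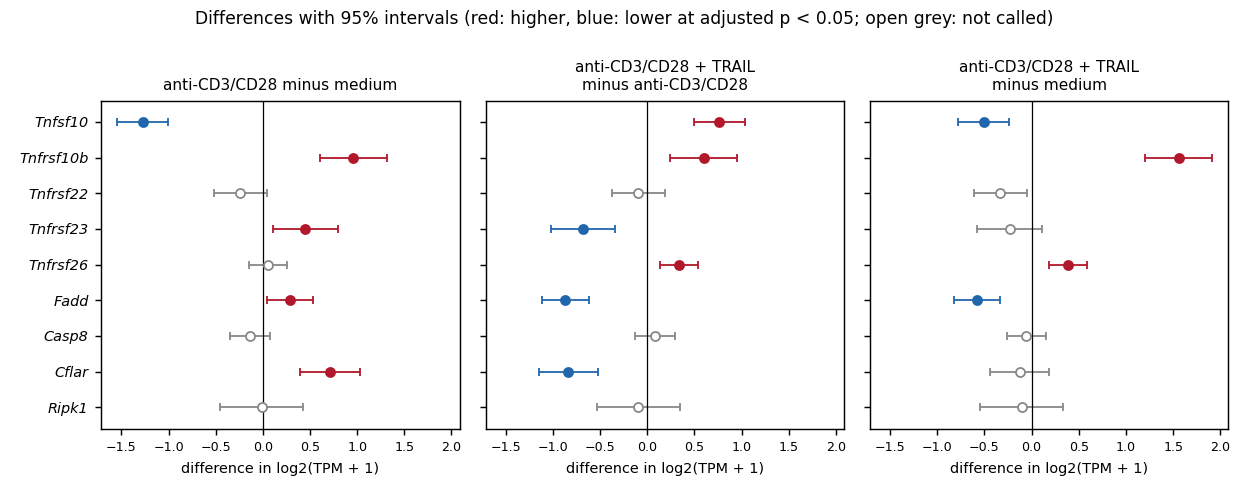
Differences in log2(TPM + 1) for the 9 genes in the 3 comparisons, with unadjusted 95% intervals from limma; red marks genes called higher, blue lower, and open grey symbols genes not called. *Tnfrsf10b* is above 0 in all 3 panels (0.96, 0.60 and 1.56), while *Tnfsf10*, *Tnfrsf23*, *Fadd* and *Cflar* lie on opposite sides of 0 in the first and second panels.

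Other death pathway genes were read in 4 lists, and from each list at most 4 genes, those with the largest change between TRAIL-treated and stimulated cells, are given with their values. Others are named only where they could not be tested or where another scaling changed their call, and these were chosen after their values were seen. Among other death receptors and ligands, 6 of 8 genes could be tested, and *Tnfrsf11b* and *Tnfsf15* were too low. With TRAIL, 3 of the 6 rose and 2 fell against stimulated cells (median 0.70, all genes 0.01), where 33.5% of all genes were called in each direction. *Fasl*, the ligand of the death receptor FAS, rose from 10.4 ± 0.69 to 33.6 ± 5.53 TPM (SD, n = 3; log2 fold change 1.59, adjusted p = 2.44e-06). Its receptor gene *Fas* fell from 62.4 ± 1.68 to 32.4 ± 0.13 TPM (-0.93, adjusted p = 1.88e-05). *Tnfrsf1a*, a TNF receptor gene, rose from 18.8 ± 0.59 to 50.7 ± 1.54 TPM (1.38), and *Tnfrsf21*, the gene of death receptor 6, from 4.33 ± 0.79 to 11.6 ± 1.26 TPM (1.24). In stimulated against medium cells 2 of the 6 rose and 3 fell (background 28.8 and 40.0%), and in TRAIL-treated against medium cells 3 were higher and 1 lower (background 8.03 and 24.6%).

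Among the 10 genes of the receptor complex and of its ubiquitin modification, all tested, 3 rose and 2 fell with TRAIL against stimulated cells (median 0.00, background 33.5% in each direction). *Tnfaip3*, which encodes A20, an inhibitor of NF-κB signaling, measured 92.5 ± 8.35 TPM in medium, 115 ± 17.5 in stimulated and 715 ± 20.1 TPM in TRAIL-treated libraries, a rise with TRAIL of 2.64 on the log2 scale (adjusted p = 3.49e-08), the largest in the 4 lists. The other named genes moved less, with *Birc2* (cIAP1) at 0.58, *Otulin*, a deubiquitinase of linear chains, at -0.51 and *Rbck1*, a subunit of the linear ubiquitin ligase, at -0.33. The fall of *Rbck1* was not called under quantile normalization (adjusted p = 0.38), and *Cyld* was called higher under both other scalings (0.30 and 0.35, adjusted p = 0.033 and 0.020). In the comparisons with medium, 3 of the 10 were higher and 4 lower after stimulation (background 28.8 and 40.0%), and 1 was higher and 2 were lower with TRAIL (background 8.03 and 24.6%). The rises of *Birc3* and *Tnfaip3* with stimulation were not called under quantile normalization, nor the lower levels of *Tradd* (both scalings) and *Sharpin* (median-of-ratios) with TRAIL against medium. In the latter comparison *Otulin* was called higher under both scalings (0.40 and 0.34, adjusted p = 0.016 in each) and *Birc3* under median-of-ratios scaling (0.47, adjusted p = 0.0097), a scaling under which 3 genes of the list were higher and 0 lower.

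In the mitochondrial arm and among the effector caspases, 0 of 8 genes were higher and 6 were lower with TRAIL than in stimulated cells (median -0.87, all genes 0.01, background for lower genes 33.5%). *Casp6*, an effector caspase gene, had the largest fall, from 196 ± 26.2 to 20.1 ± 0.70 TPM (log2 fold change -3.22, adjusted p = 1.91e-08), after a rise with stimulation from 26.8 ± 4.54 TPM in medium. *Cycs*, the gene of cytochrome c, fell by 1.26 on the log2 scale, *Apaf1*, the gene of the apoptosome scaffold, by 0.96 and *Bid*, which links caspase-8 to mitochondria, by 0.94. *Xiap*, the gene of a caspase inhibitor, was not called here (-0.38, adjusted p = 0.053) but was called lower under both other scalings (-0.28 and -0.32, adjusted p = 0.040 and 0.021). After stimulation 4 of the 8 had risen and 1 had fallen (background 28.8 and 40.0%). Against medium, 4 of the 8 were lower with TRAIL and 0 higher (background 24.6 and 8.03%), and *Bid* was among the lower genes, from 37.7 ± 2.30 to 19.5 ± 1.54 TPM. In that comparison *Diablo* was not called lower under median-of-ratios scaling or quantile normalization.

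Of the 3 necroptosis genes, 2 fell and 1 rose with TRAIL against stimulated cells (background 33.5% in each direction). *Mlkl*, the gene of the pore-forming effector, fell from 19.6 ± 2.66 to 3.38 ± 0.49 TPM (log2 fold change -2.23, adjusted p = 2.21e-07), close to its level in medium of 3.71 ± 0.18 TPM. *Zbp1*, which encodes a nucleic acid sensor, fell from 226 ± 21.3 to 78.2 ± 7.73 TPM (-1.52), and *Ripk3*, the gene of the kinase that acts on MLKL, rose by 0.37 (adjusted p = 0.0034). With stimulation *Mlkl* and *Zbp1* rose and *Ripk3* fell (background 28.8% higher and 40.0% lower). The fall of *Ripk3* was 0.23 on the log2 scale (adjusted p = 0.038), a call lost under both other scalings. In TRAIL-treated against medium cells only *Zbp1* was called, and it was lower (background 8.03% higher and 24.6% lower).

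**Figure D5:**
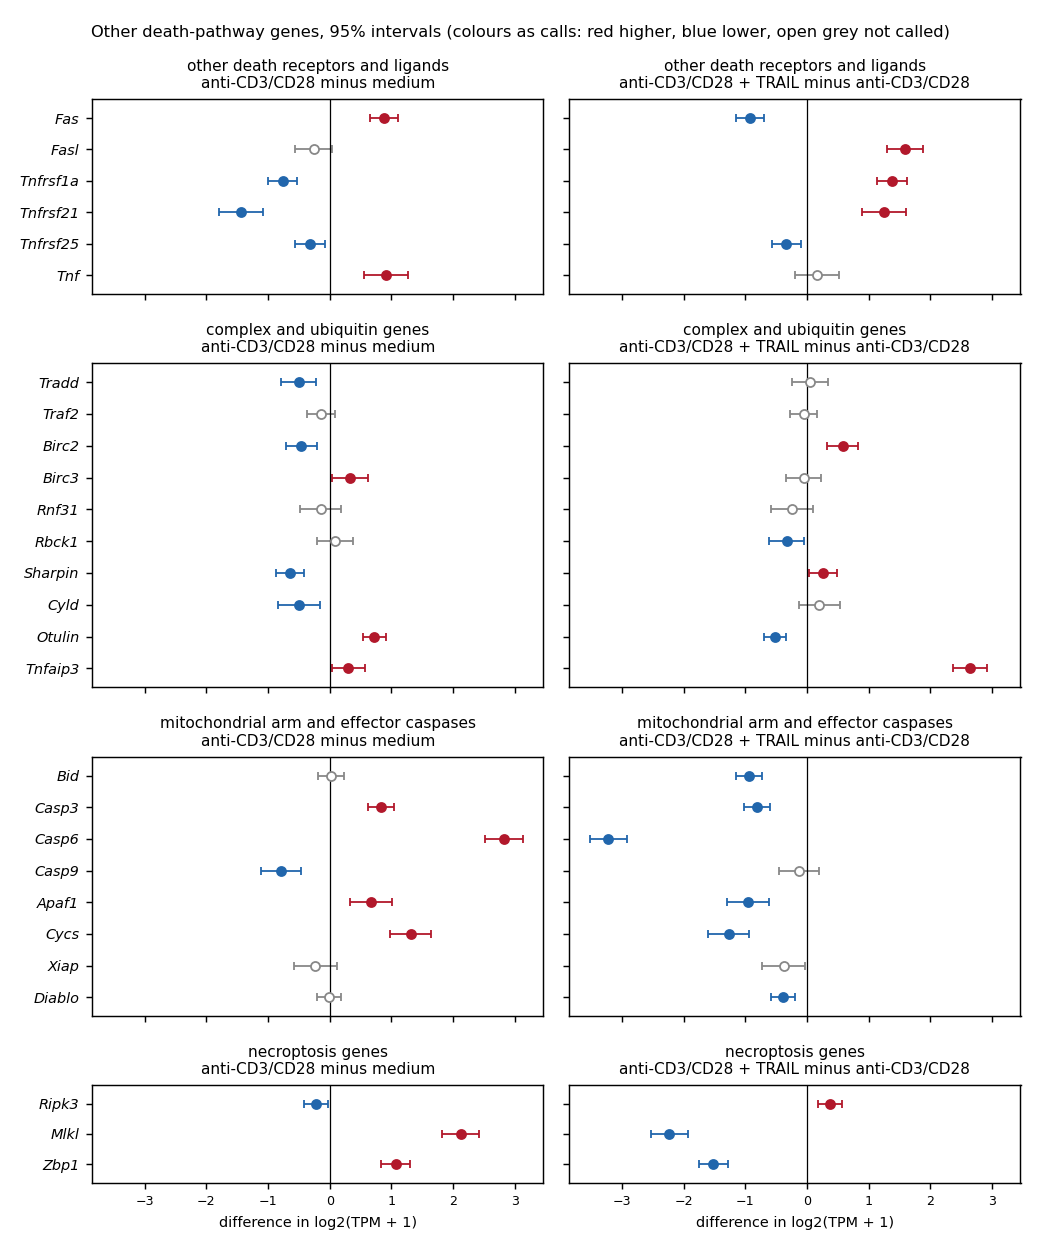
Differences in log2(TPM + 1) with unadjusted 95% intervals for the tested genes of the 4 lists, stimulated minus medium on the left and TRAIL-treated minus stimulated on the right; red marks genes called higher, blue lower and open grey genes not called. *Tnfaip3* (2.64) and *Casp6* (-3.22) lie furthest from 0 on the right.

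Over the 9 libraries, the genes most like *Tnfrsf10b* in log2(TPM + 1), among 9588 genes that averaged 10 TPM or more, were *Hsph1* (Pearson r = 0.982), *Rnf19a* (0.977), *Sh2d2a* (0.976), *Irf2bp2* (0.976) and *Fosl2* (0.972). *Hsph1*, which encodes a heat shock protein, had a mean of 46.0 TPM in medium, 154 after stimulation and 302 with TRAIL, and *Fosl2*, an AP-1 family gene, had means of 6.52, 86.6 and 203 TPM. The genes most like *Tnfsf10* were *Ifi209* (0.998), *Ip6k2* (0.997), *Znrf2* (0.997), *Ifi214* (0.997) and *Rmnd1* (0.997), of which *Ifi209* and *Ifi214* belong to an interferon-inducible family. *Ifi209* had means of 244, 60.2 and 139 TPM. These correlations are descriptions, since the 9 libraries fall into 3 groups and the correlation mostly restates the order of the group means.

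RefSeq promoter sequences (GRCm38.p6) were matched for 6 of the 9 genes, and *Tnfrsf10b*, *Tnfrsf22* and *Tnfrsf26* had no entry. The 250 bases before the start are shown for *Tnfsf10* (chr3:27316827-27317076, plus strand) and *Cflar* (chr1:58711241-58711490, plus strand), as members with opposite responses to stimulation and to TRAIL.
Tnfsf10: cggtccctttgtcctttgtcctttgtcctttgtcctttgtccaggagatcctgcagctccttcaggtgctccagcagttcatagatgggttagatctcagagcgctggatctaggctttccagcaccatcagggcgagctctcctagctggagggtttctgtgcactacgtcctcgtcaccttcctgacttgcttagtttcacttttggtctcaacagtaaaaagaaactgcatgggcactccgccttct
Cflar: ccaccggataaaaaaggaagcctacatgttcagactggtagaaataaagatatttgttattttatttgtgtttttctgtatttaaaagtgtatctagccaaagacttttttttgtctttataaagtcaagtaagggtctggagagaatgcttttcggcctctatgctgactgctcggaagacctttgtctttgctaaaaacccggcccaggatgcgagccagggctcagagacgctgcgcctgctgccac
The *Tnfsf10* window had 51.6% GC and 6 CpG dinucleotides and the *Cflar* window 42.8% and 7, and the medians over 32851 promoters were 52.4% and 6. Neither window held a match to GAAANNGAA (interferon response), TTCNNNGAA (STAT), GGNNTTTCC (NF-κB) or TGANTCA (AP-1) on either strand, letters that were found in 7.1, 7.0, 4.9 and 6.7% of all such windows. A match to GAAANNGAA on the minus strand lies just past the *Cflar* window, at base 258 of the 300 in the promoter table, a length at which 8.6% of promoters hold one. Absence of these letters from 250 bases says nothing of the factors that bind them.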

How the data were processed

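The authors trimmed reads with Trimmomatic 0.36 and aligned them with HISAT2 2.1.0, and the submitters' processing notes also name SAMtools 1.2, StringTie 2.1.2 and DESeq2. Those notes name a human build, GRCh38, whereas the study's methods name GRCm38, and the loci of all 9 genes in the table matched GENCODE M21 (GRCm38). As deposited, the table lists TPM values of 55487 genes in 9 libraries. Which program made them is not given in the sources used here, and depth is unknown. A value of 0.0001 TPM is the floor of the table.

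All 9 libraries entered 1 limma 3.58.1 fit (R 4.3.3, lmFit, eBayes with a trend) of log2(TPM + 1), with Benjamini-Hochberg adjustment over 15536 genes. On simulated data the step was tested before use. Group levels are means ± SD of 3 libraries. Alternatives varied the pseudocount, filter, scaling, variance trend, libraries in the fit, replicate block and call rule, and left out each of the 9 libraries in turn. The genes and lists were chosen with earlier results of these data known. All 9 genes were named, and from each list at most 4 tested genes with the largest absolute log2 fold change between TRAIL-treated and stimulated cells, plus the 5 genes most correlated with *Tnfrsf10b* and with *Tnfsf10*. The values of 1 list gene are not reported here. Genes named for calls that other scalings lost or gained, for antisense overlap or among the cell markers were added after their values were seen. Coding sequences came from GENCODE M21 and were aligned with Biopython, promoters from RefSeq, and figures were drawn with matplotlib.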

Additional observations from a re-analysis of the deposited data

How the results depend on the processing

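In TRAIL-treated against stimulated cells and against medium, none of the called genes among the 9 lost its call or turned direction in the 18 alternatives run for each (17 for *Tnfrsf23*, which the filter of 5 TPM removes), apart from the fold rule below. In stimulated against medium cells, *Fadd* lost its call in 9 of 18 alternatives and *Tnfrsf23* in 4 of 17, without a filter (adjusted p = 0.083) and in fits lacking a single library. Leaving out single libraries gave 3 to 5 called genes, with 3 without medium replicate 1, stimulated replicate 2 or stimulated replicate 3. With a change of at least 1 on the log2(TPM + 1) scale also required, 1, 0 and 1 genes were called in the 3 comparisons, in place of 5, 6 and 4. Which genes pass this rule depends on pseudocount and scaling. In stimulated against medium cells *Tnfrsf10b* was at 0.96 in the main fit and at 1.12 with a pseudocount of 0.1. Under quantile normalization it was at 1.25 and *Tnfsf10* at -0.98.

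Changes of sign concerned only genes that were not called. In stimulated against medium cells, *Ripk1* was at 0.081 after median-of-ratios scaling and at 0.046 after quantile normalization, and at -0.167 (without stimulated replicate 2) to 0.221 (without stimulated replicate 1) with a library left out, and *Tnfrsf22* was at 0.016 under quantile normalization. In TRAIL-treated against stimulated cells, *Ripk1* was at 0.00095 and 0.0105 under these scalings and at -0.326 (without stimulated replicate 1) to 0.0624 (without stimulated replicate 2) with a library left out. In TRAIL-treated against medium cells, the 2 scalings gave 0.132 and 0.053 for *Casp8*, 0.0628 and 0.0057 for *Cflar* and 0.082 and 0.0563 for *Ripk1*. With a library left out, *Casp8* was at -0.115 to 0.0113 (without TRAIL-treated replicate 3) and *Ripk1* at -0.208 to 0.0042 (without medium replicate 1). The cause was not tested.

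The median of all genes' log2 fold changes shifted by 0.08, 0.08 and 0.17 in the 3 comparisons with median-of-ratios scaling and by 0.19, -0.06 and 0.14 with quantile normalization. In TRAIL-treated against medium cells the share of higher among called genes, 24.6%, became 47.6 and 42.4%.

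The correlations of same-numbered libraries' deviations from their group means ranged from -0.31 to 0.29 and were highest for the own number in 4 of 9 cases. With 3 libraries per group such correlations cannot decide whether replicate numbers pair the libraries. With the replicate block, 4, 6 and 4 genes were called.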
